A study of Mus musculus with 4 samples.

Results

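Rag1, Rag2 and Dntt are the 3 lymphoid genes that carry out the first cutting and the base addition of V(D)J recombination, and they were followed here across 4 single-cell libraries of mouse bone marrow. The 3 genes were taken by symbol from the deposited count matrices, where each has 1 entry among 32285 gene features, beside 15 antibody features. The cells were CD45.2+ Kit+ bone marrow taken 10 weeks after transplantation. There was 1 library for each of 4 labels: a control, a deletion of Mll3, a deletion of Mll4 and a deletion of both, labelled Mll3/4 deleted. Mll3 and Mll4 are the histone methyltransferases encoded by Kmt2c and Kmt2d. The title of the series places the question in blood stem cell and myeloid identity against B-cell priming. The labels give no allele, Cre driver, sex or number of animals, and they do not say what the 2 hashtag antibodies in each library mark. With 1 library per group there is no test between groups, and every interval below is a 95% interval that covers counting error only.

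Rag1 and Rag2 encode the subunits of the recombinase that cuts DNA at recombination signals beside the V, D and J segments of antigen receptor genes. Dntt encodes terminal deoxynucleotidyl transferase, which adds bases without a template to the ends before they are joined. In the bone marrow Rag1 and Rag2 are known for expression in pro-B and pre-B cells, and Dntt for expression in pro-B cells. The Rag2 protein is known to be degraded as cells enter S phase, so that cutting is kept out of dividing cells.

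In GENCODE M21 on GRCm38, the assembly also called mm10, Rag1 (ENSMUSG00000061311) lies at chr2:101638282-101649501 on the minus strand, with 2 exons. Rag2 (ENSMUSG00000032864) lies beside it at chr2:101624718-101632529 on the plus strand, with 3 exons, and the 3′ ends of the pair are 5752 bp apart. Dntt (ENSMUSG00000025014) lies at chr19:41029275-41059525 on the plus strand, with 12 exons. The 250 bases before the start of each gene follow, 5′ to 3′ on the strand of the gene, from RefSeq on GRCm38.p6, where all 3 genes were matched. They are shown because the 3 genes are in the same cells but differ in how far levels change between dividing and non-dividing cells. No link between the levels and these sequences was tested. Capitals mark matches to the motifs named after them.
Rag1 promoter, chr2:101649533-101649782, minus strand: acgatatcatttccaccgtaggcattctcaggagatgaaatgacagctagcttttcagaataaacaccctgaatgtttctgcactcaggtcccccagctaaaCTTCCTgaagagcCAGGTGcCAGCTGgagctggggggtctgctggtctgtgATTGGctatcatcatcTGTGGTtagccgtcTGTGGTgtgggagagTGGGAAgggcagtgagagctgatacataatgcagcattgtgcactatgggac
Rag2 promoter, chr2:101624462-101624711, plus strand: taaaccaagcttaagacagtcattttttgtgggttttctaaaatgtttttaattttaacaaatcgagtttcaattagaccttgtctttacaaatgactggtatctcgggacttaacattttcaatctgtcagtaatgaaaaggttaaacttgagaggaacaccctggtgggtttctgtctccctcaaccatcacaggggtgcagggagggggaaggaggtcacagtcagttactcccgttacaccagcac
Dntt promoter, chr19:41029025-41029274, plus strand: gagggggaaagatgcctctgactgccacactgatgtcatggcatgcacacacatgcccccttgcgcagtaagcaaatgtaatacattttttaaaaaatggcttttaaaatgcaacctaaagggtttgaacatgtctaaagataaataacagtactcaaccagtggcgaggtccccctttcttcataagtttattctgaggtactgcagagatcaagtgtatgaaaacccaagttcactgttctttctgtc
The motifs searched on both strands were CAGCTG and CAGGTG (E-boxes, bound by E proteins such as Tcf3), CCCNNGGG (EBF), TGTTTAC (FOXO), TGGGAA (Ikaros), AGGAAG (ETS), TGTGGT (RUNX), CCAAT and TATAAA. The Rag1 window held 7 matches. With the base before the start counted as -1, they were ETS at -148, CAGGTG at -135, CAGCTG at -128, CCAAT at -97, RUNX at -81 and -67, and Ikaros at -52. The Rag2 and Dntt windows held none of these letters. Among 32851 promoter windows of the same length, 29.5% held the ETS motif, 17.2% CAGGTG, 13% CAGCTG, 33.8% CCAAT, 14.0% RUNX and 21.6% the Ikaros motif. For the motifs absent from all 3 windows, the shares were 11.8% for EBF, 3.17% for FOXO and 12.4% for TATAAA. A match describes the letters only.

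After filtering, 5350 to 7146 cells per library were kept, and the median kept cell had 5142 UMIs (tags that count captured RNA molecules) in the Mll4 library and 9965 to 16963.5 UMIs in the other 3. Pairs of libraries shared 3 to 15 barcodes. As a check of the labels, the summed level of Kmt2c was 47.9, 27.2, 59.2 and 34.8 CPM (CPM scales counts to a common library total) in the order control, Mll3, Mll4 and Mll3/4, and that of Kmt2d was 25.8, 21.6, 24.99 and 24.7 CPM. Over all cells a lower Kmt2d was therefore not detectable in the libraries labelled for its deletion (in B-lineage cells it was at 40.2, 25.3, 16.8 and 24.7 CPM in the same order, the Mll4 value from 6 counts), although a 3′ count need not be lower when an upstream exon is deleted, and the libraries are named below by their labels. Xist was at 0.519 CPM under the Mll4 label and at 954.8 to 1839 CPM in the other 3, so sex and the label cannot be told apart there. The Mll3/4-labelled library stood apart from the rest in its cells: 98.7% of them fell into clusters called B-cell progenitor-like, against 6.59% in control, 6.30% under the Mll3 label and 2.67% under the Mll4 label. These are shares of cells sorted for Kit. The class is named from markers such as Cd79a, Ebf1, Pax5 and Vpreb1 and was clustered without the 3 genes.

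All 3 genes were concentrated in B-lineage cells, the B-cell progenitor-like clusters, and Dntt had in addition a lower level in stem and multipotent progenitor-like cells. In control, Rag1 was at 327 CPM in 471 B-lineage cells (307 to 347) and at 0.226 CPM in the 6656 cells outside the B lineage (0.157 to 0.316). Rag2 was at 152 CPM in control B-lineage cells (139 to 167) and 0.359 CPM outside. Dntt was at 1239.5 CPM (1201 to 1279) and 10.6 CPM. Outside the B lineage the control library thus held Rag1 and Rag2 at under 1 CPM, and the counts were not corrected for free RNA. After thinning every cell to 2000 UMIs, 49.2% of control B-lineage cells had a Rag1 UMI (unthinned 70.7%), against 0.0607% of the cells outside the B lineage, whose median depth was 16304.5 UMIs against 4389 UMIs in B-lineage cells. Under the Mll3/4 label the 87 cells outside the B lineage held Rag1 at 22.0 CPM (15.6 to 30.1), and 5.81% of the 86 that could be thinned had a Rag1 UMI, a higher level than outside the B lineage in control and far below the 388 CPM of its B-lineage cells.

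**Figure D1:**
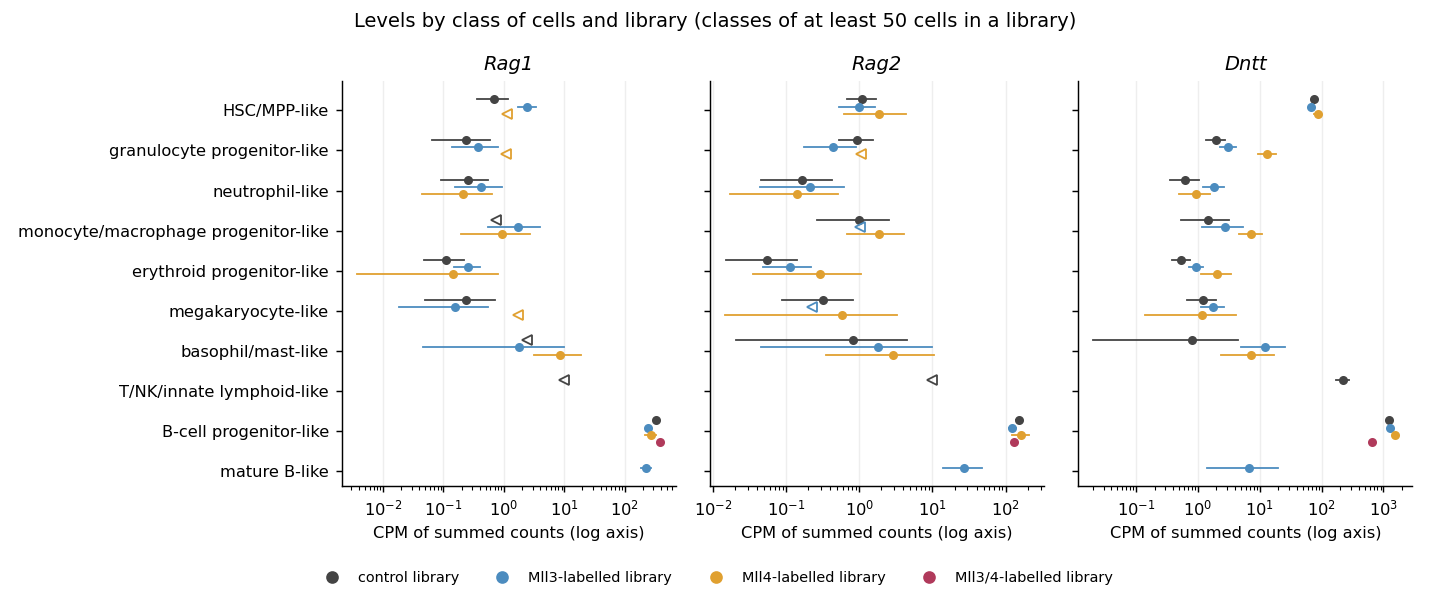
Level of Rag1, Rag2 and Dntt (CPM, log axis) in each cell class of at least 50 cells, by library. Points are sums over the cells of a class, lines are 95% counting intervals, and hollow triangles mark 0 counts drawn at the level of 3 counts. B-cell progenitor-like cells hold the highest level of Rag1, Rag2 and Dntt in each library, and Dntt is also present in HSC/MPP-like cells at 66.8 to 87.4 CPM.

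Dntt outside the B lineage was found mainly in HSC/MPP-like cells, the class of stem and multipotent progenitor markers. It was at 74.3 CPM in control (1303 cells, 70.4 to 78.2), 66.8 CPM under the Mll3 label (955 cells, 62.6 to 71.2) and 87.4 CPM under the Mll4 label (467 cells, 76.5 to 99.4). In each library this was far below the level in B-lineage cells. In HSC/MPP-like cells thinned to 2000 UMIs, Dntt was detected in 20.5% of control cells with a Flt3 UMI and 3.33% of those without. The same shares were 18.6% and 4.27% under the Mll3 label, and 28.2% and 5.45% under the Mll4 label. In these 3 libraries Dntt was thus found more often in cells with Flt3, a cytokine receptor of lymphoid-primed progenitors. The Mll3/4-labelled library had 12 HSC/MPP-like cells and 8 Dntt counts in them, at 31.1 CPM (13.4 to 61.2).

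Rag1 and Rag2 were near the floor in HSC/MPP-like cells. Rag1 was at 0.681 CPM in control (13 counts) and 2.44 CPM under the Mll3 label (35 counts, 11 of them in 1 cell). No Rag1 count was found in 467 HSC/MPP-like cells of the Mll4 label, which allows a level of up to 1.13 CPM (3 counts of the total). Mature B-like cells, set apart by Igkc, Ms4a1 and H2-Aa, held Rag1 at 274 CPM in control (19 cells, 17 counts, 160 to 439) and 227 CPM under the Mll3 label (145 cells, 101 counts, 185 to 276). In the same cells Rag2 was at 48.4 CPM (3 counts) and 27 CPM (12 counts), and Dntt at 16.1 CPM (1 count) and 6.75 CPM (3 counts). Mature B-like cells thus had Rag1 near the level over all B-lineage cells, 327 CPM in control and 246 CPM under the Mll3 label, and Dntt far below its level there. Non-dividing B-lineage cells, defined below, held more Rag1, at 616 and 414 CPM. Mature B-like cells were not split by dividing state. In T/NK/innate lymphoid-like cells of the control library, 62 of 66 Dntt counts came from 1 cell of 50.

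Over all kept cells, the 3 genes were far higher under the Mll3/4 label than under the other labels. Rag1 was at 7.10 CPM in control (1091 counts), 6.49 CPM under the Mll3 label (882), 3.36 CPM under the Mll4 label (110) and 379 CPM under the Mll3/4 label (29464). Its log2 ratio to control was 5.74 under the Mll3/4 label (5.65 to 5.83), a 53.4-fold difference. Rag2 was at 3.53, 2.95, 2.29 and 129 CPM in the same order, 36.5-fold higher under the Mll3/4 label. Dntt was at 36.1, 35.2, 27.2 and 645 CPM, 17.9-fold higher. Of 15158 genes measured in that comparison, 12% were at least 2-fold higher, and all 3 genes were among them. In the single-label libraries Rag1 had log2 ratios of -0.13 and -1.08, Rag2 of -0.26 and -0.62, and Dntt of -0.04 and -0.41. Rag1 under the Mll4 label was 2.12-fold lower without a pseudocount. With the pseudocount of 1 CPM used for tables of all genes, where 2.91% were at least 2-fold lower, it was not past 2-fold. In the Mll3 comparison 0.199% of genes were at least 2-fold higher and 0.467% lower, and in the Mll4 comparison 5.74% were higher. The 3 comparisons share the control library. With each cell given the same weight the log2 ratios under the Mll3/4 label were smaller, at 3.68 for Rag1, 3.33 for Rag2 and 2.84 for Dntt, and with cells thinned to 2000 UMIs they were 3.79, 3.16 and 2.88. For Dntt the ratio was also smaller among cells of 5000 to 20000 UMIs, at 3.52. The share of B-lineage cells moved with these ratios, from 6.59% to 98.7% of cells. The ratios are of UMI sums, and B-lineage cells of control were shallower than the other cells of that library. The share of cells therefore understates the difference in the share of UMIs that came from B-lineage cells.

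Within B-lineage cells no such large difference was seen. Rag1 was at 327 CPM in control, 246 CPM under the Mll3 label (228 to 264), 272 CPM under the Mll4 label (221 to 332) and 388 CPM under the Mll3/4 label (383 to 392). The order was Mll3/4, control, Mll4 and Mll3, and the Mll4 value could not be separated from control or Mll3 by counting error. The log2 ratio of the Mll3/4 label to control was 0.25 (0.16 to 0.34). This direction was not stable: it was -0.18 with each cell weighted equally, -0.15 after thinning to 2000 UMIs and 1.27 among cells of 5000 to 20000 UMIs. The thinned share of B-lineage cells with a Rag1 UMI was 49.2%, 40.5%, 25.7% and 51.0% in the order control, Mll3, Mll4 and Mll3/4 (unthinned 70.7%, 68.6%, 38.5% and 85.9%).

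Rag2 was at 152 CPM in control, 124 CPM under the Mll3 label (111 to 137), 160.01 CPM under the Mll4 label (121 to 207) and 132 CPM under the Mll3/4 label. The Rag2 log2 ratio of the Mll3/4 label to control was -0.21 (-0.34 to -0.08), and it was 0.23 among cells of 5000 to 20000 UMIs and 0.01 when B-lineage cells were chosen by 3 of 8 markers. The direction of this ratio thus changed with the choice of cells. The Rag2 log2 ratio of the Mll3 label to control was -0.30 (-0.50 to -0.10), and that of the Mll4 label was 0.07 (-0.35 to 0.47), an interval that includes 0. The thinned share of cells with a Rag2 UMI was 35.1%, 27.9%, 20.3% and 22.8% (unthinned 58.8%, 55.8%, 30.1% and 66.1%). Only 74 of the 143 Mll4-labelled cells were deep enough to be thinned, and these shares do not follow the order of the CPM levels, so no order is read from them for either gene.

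Dntt was lower in B-lineage cells of the Mll3/4 label than in those of control. It was at 1239.5 CPM in control, 1263 CPM under the Mll3 label (1223 to 1305), 1541 CPM under the Mll4 label (1415 to 1676) and 659.7 CPM under the Mll3/4 label (654 to 666). The Mll3/4-labelled library was lowest, and its log2 ratio to control was -0.91 (-0.96 to -0.86), a 1.88-fold lower level. Over the alternatives this ratio ran from -1.08 to -0.69. Of 13456 genes compared in these cells, 7.39% were at least 2-fold lower and 9.45% at least 2-fold higher, and none of the 3 members passed 2-fold. Nor did any pass 2-fold under the Mll3 label, where 0.417% of genes were higher and 1.89% lower, or under the Mll4 label, where 8.19% and 8.52% were. Nearly all B-lineage cells of the control, Mll3 and Mll4 labels lay in clusters 0 and 16, while those of the Mll3/4 label lay in clusters 22 to 25. After thinning to 2000 UMIs, a Dntt UMI was found in 85.3% of control, 86.3% of Mll3-labelled, 77.0% of Mll4-labelled and 64.1% of Mll3/4-labelled B-lineage cells. The unthinned shares were 94.1%, 93.2%, 79.7% and 91.5%. In cells outside the B lineage the thinned Dntt share was 1.23% in control and 3.49% under the Mll3/4 label (3 of 86 cells).

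Dividing B-lineage cells were those in which 20 S-phase and 20 G2/M genes together made up more than 0.814% of UMIs, and 221 of 7813 B-lineage cells lay within 10% of that value. They were 153 of 471 cells in control (32.5%), 150 of 369 under the Mll3 label (40.7%), 80 of 143 under the Mll4 label (55.9%) and 1437 of 6830 under the Mll3/4 label (21.0%). Dividing cells were deeper, with a median of 10552 UMIs against 3415.5 in control, 10010.5 against 3821 under the Mll3 label, 3099 against 1280 under the Mll4 label and 14482 against 9026 under the Mll3/4 label.

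Rag1 was lower in dividing than in non-dividing cells in each library. The level was 118 CPM in dividing and 616 CPM in non-dividing cells of control, 126 and 414 CPM under the Mll3 label, 113 and 730.1 CPM under the Mll4 label (30 and 67 counts), and 229 and 454 CPM under the Mll3/4 label. Dividing cells of control, Mll3 and Mll4 labels thus lay close together, between 113 and 126 CPM, and those of the Mll3/4 label were higher. The log2 ratio of dividing to non-dividing cells was -2.39 in control (-2.61 to -2.17), -1.72 under the Mll3 label (-1.96 to -1.48), -2.69 under the Mll4 label (-3.36 to -2.05) and -0.99 under the Mll3/4 label (-1.03 to -0.94). At least 2-fold lower levels were seen for 12.1% of genes in control, 4.9% under the Mll3 label, 5.37% under the Mll4 label and 2.24% under the Mll3/4 label. Rag1 was past 2-fold in the first 3 and at 1.98-fold in the last. The ratio of the Mll3/4 label differed from that of control by 1.40 on the log2 scale (1.18 to 1.62), and over the alternative settings that difference ran from 0.59 to 1.91. Among cells of 5000 to 20000 UMIs the control ratio was -1.36.

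**Figure D2:**
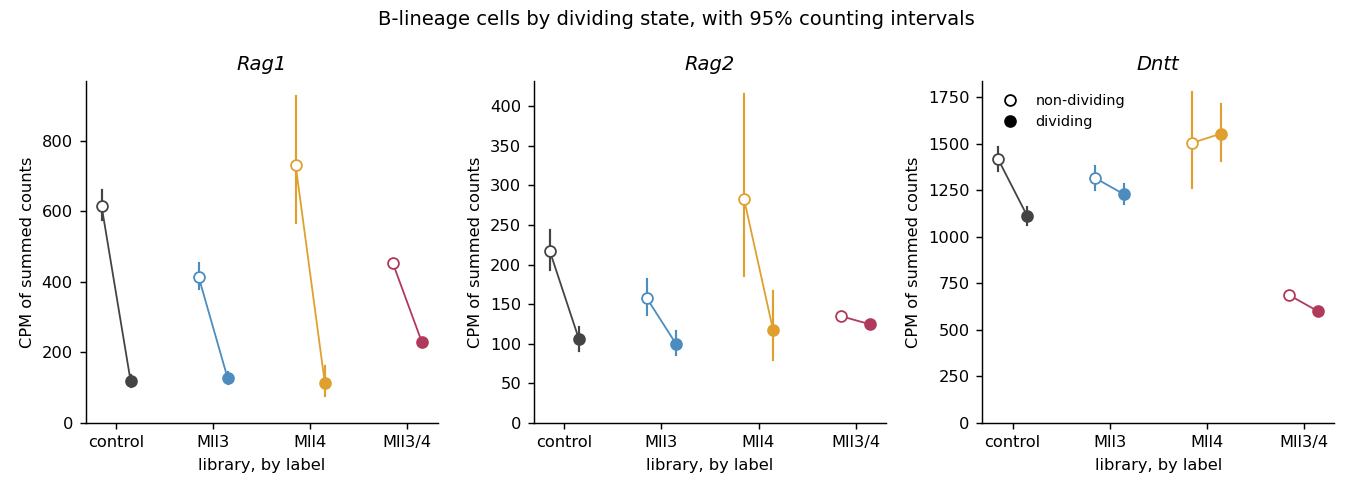
Level of Rag1, Rag2 and Dntt (CPM) in non-dividing (open) and dividing (filled) B-lineage cells of each library, with 95% counting intervals. Rag1 is lower in dividing cells of all 4 libraries, from 616 to 118 CPM in control and from 454 to 229 CPM under the Mll3/4 label, and Dntt differs less between the states.

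Rag2 differed less between the states than Rag1. It was at 106 CPM in dividing and 217 CPM in non-dividing cells of control, 99.7 and 157 CPM under the Mll3 label, 117 and 283 CPM under the Mll4 label (31 and 26 counts), and 124 and 135 CPM under the Mll3/4 label. The log2 ratios were -1.04 (-1.31 to -0.77), -0.66 (-0.97 to -0.35), -1.27 (-2.07 to -0.46) and -0.12 (-0.18 to -0.05). Rag2 was past 2-fold lower in control and under the Mll4 label, and under the Mll3/4 label it was 1.08-fold lower. The ratio there was 0.01 in cells of the first hashtag and -0.30 in those of the second, and in control it was -0.31 among cells of 5000 to 20000 UMIs. Its difference from control was 0.92 (0.65 to 1.19), with a range of 0.22 to 1.01 over the alternatives. The mean number of Rag2 UMIs per cell was higher in dividing cells, at 1.27 against 0.912 in control and 1.93 against 1.34 under the Mll3/4 label, beside their larger UMI totals.

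Dntt differed by less than 2-fold between the states in each library. It was at 1111 CPM in dividing and 1417 CPM in non-dividing cells of control, 1227 and 1315 CPM under the Mll3 label, 1554 and 1504 CPM under the Mll4 label, and 598 and 685 CPM under the Mll3/4 label. The log2 ratios were -0.35 (-0.44 to -0.26), -0.10, 0.05 (-0.23 to 0.34) and -0.20 (-0.23 to -0.17), none of them past 2-fold. At least 2-fold higher levels in dividing cells were seen for 7.77% of genes in control, 5.63% under the Mll3 label, 21.9% under the Mll4 label and 5.16% under the Mll3/4 label. The sign depended on the hashtag under the Mll3/4 label, at 0.08 for the first and -0.49 for the second, and under the Mll4 label, at 0.83 (0.27 to 1.44) from 30 counts in non-dividing cells and -0.34 (-0.69 to 0.02). In control it was -0.70 and -0.10. Mean Dntt UMIs per cell were higher in dividing cells, at 13.4 against 5.95 in control and 9.27 against 6.81 under the Mll3/4 label.

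Between the libraries, dividing cells of the Mll3/4 label had more Rag1 than those of control, with a log2 ratio of 0.96 (0.77 to 1.16), and non-dividing cells had less, with -0.44 (-0.54 to -0.34). For Rag2 these ratios were 0.24 (0.03 to 0.45) and -0.69 (-0.86 to -0.51). For Dntt they were -0.89 (-0.96 to -0.83) and -1.05 (-1.11 to -0.98), so that Dntt was lower in both states. Among dividing cells 13.4% of genes were at least 2-fold higher and 4.97% at least 2-fold lower, and among non-dividing cells 10.5% and 10.6%. Dntt in non-dividing cells was the only one of these 6 values past 2-fold. The states of these libraries were not matched in their mixture of cells by S and G2/M list, which is given below. Thinned to 2000 UMIs, a Rag1 UMI was found in 19.7% of dividing and 64.7% of non-dividing cells of control, 16.8% and 57.9% under the Mll3 label, and 35.0% and 55.2% under the Mll3/4 label. The unthinned shares were 52.9% and 79.2%, 58.7% and 75.3%, and 79.0% and 87.7%. Only 6 non-dividing cells of the Mll4 label reached 2000 UMIs.

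Levels were also taken over 5 equal groups of B-lineage cells ordered by their cycle-gene share within each library. Rag1 in control was at 727, 837, 670.2, 133 and 139 CPM from the lowest to the highest group, so that it was low from the fourth group on. Under the Mll3 label it was at 676, 687, 195, 104 and 149 CPM, low from the third group on. Under the Mll3/4 label it was at 578, 516, 439, 314 and 231 CPM, lower at each step. Rag2 followed the same course in control, at 225, 325, 226, 92.3 and 116 CPM, and was flatter under the Mll3/4 label, at 154, 146, 128, 115 and 127 CPM. Dntt in control was at 1587, 1584, 1528, 1039 and 1145 CPM, and under the Mll3/4 label at 808, 705, 681, 575 and 604.5 CPM.

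**Figure D3:**
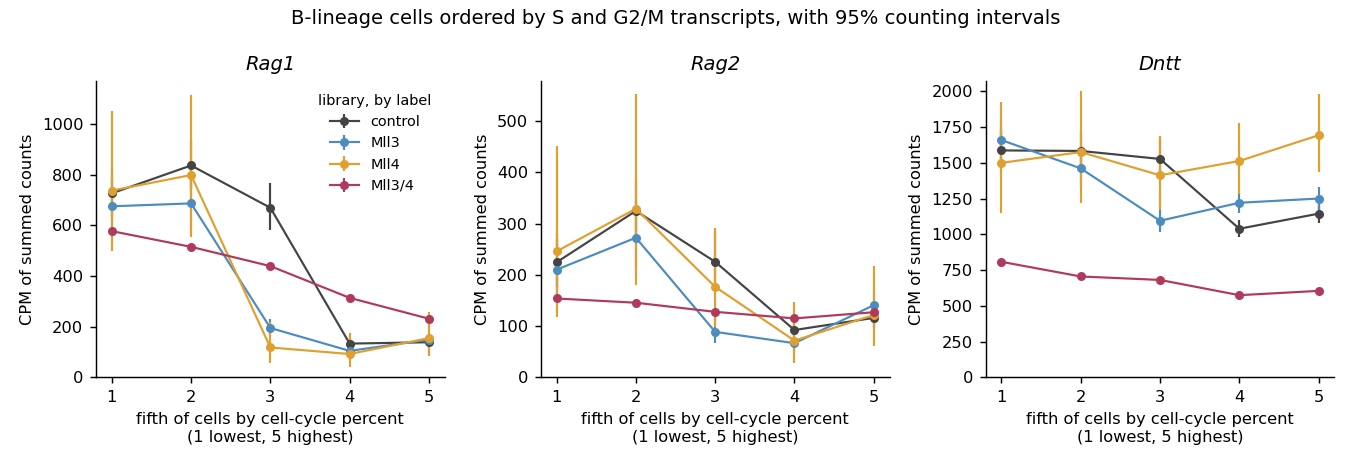
Level of Rag1, Rag2 and Dntt (CPM) over 5 equal groups of B-lineage cells ordered from the lowest to the highest share of cycle genes within each library, with 95% counting intervals. Rag1 in control is at 670.2 CPM in the third and 133 CPM in the fourth group, and under the Mll3/4 label it is lower in each successive group, from 578 to 231 CPM. The groups are not matched in cycle-gene share between libraries.

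Splitting cells by the S and the G2/M lists apart, a split chosen after the data were seen, gave the lowest Rag1 in Mll3/4-labelled cells that were high for both lists. Rag1 there was at 549 CPM in cells high for neither list, 368 CPM in those high for S only, 172 CPM for both and 389 CPM in 486 cells high for G2/M only. Rag2 was at 149, 123, 103 and 175 CPM and Dntt at 758, 625, 466 and 904 CPM in the same order. The 3 genes were thus all higher in cells with G2/M genes alone than in cells with both lists. In control Rag1 was at 746, 347, 117 and 149 CPM, the last from 15 cells. Cells high for S only were 34.4% of B-lineage cells under the Mll3/4 label and 13.8% in control. Those high for both lists were 15.7% and 29.3%, and those high for G2/M only 7.12% and 3.18%. The libraries thus held different mixtures of these groups. The part of this in the differences between the libraries by dividing state was not tested.

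The mixture of the members within cells was compared as UMIs of one gene per UMI of another. Since 3′ capture differs between genes, this ratio is read between states and not as an amount. In control there were 1.11 Rag1 UMIs per Rag2 UMI in dividing cells (0.91 to 1.36) and 2.84 in non-dividing cells (2.48 to 3.26). Under the Mll3/4 label there were 1.84 (1.76 to 1.93) and 3.37 (3.28 to 3.46). Rag1 was thus lower relative to Rag2 in dividing cells of both, and higher relative to Rag2 in both states of the Mll3/4 label. Dntt UMIs per Rag1 UMI were 9.45 in dividing and 2.30 in non-dividing control cells, and 2.61 and 1.51 under the Mll3/4 label.

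Single cells spanned a wide range. The largest number of Rag1 UMIs in 1 B-lineage cell was 16 in control, 13 under the Mll3 label, 5 under the Mll4 label and 38 under the Mll3/4 label. No Rag1 UMI was seen in 29.3%, 31.4%, 61.5% and 14.1% of B-lineage cells, and at least 5 were seen in 15.1%, 11.1%, 2.10% and 37.7%. For Dntt at least 5 UMIs were seen in 62.2%, 71.5%, 32.2% and 56.9% of cells. These shares are not corrected for depth, which was lowest under the Mll4 label. All 3 genes were detected in 44.2%, 39.3%, 10.5% and 56.7% of B-lineage cells in the same order, and after thinning to 2000 UMIs in 18.6%, 13.7%, 6.76% and 10.3%.

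Detection of Rag1 and Rag2 in the same cells was set beside the product of their shares. After thinning, both were detected in 20.6% of control B-lineage cells (17.0 to 24.7), where the product of the shares, 17.3%, lies within that interval. Within non-dividing control cells the values were 28.4% and 27.3%. Under the Mll3 label they were 15.1% (11.5 to 19.3) and 11.3% over all B-lineage cells, and 23.3% (17.6 to 29.7) and 19.8% in non-dividing cells. The pair was detected under the Mll3/4 label in 13.6% of cells (12.8 to 14.4) against a product of 11.6%, and in non-dividing cells in 14.9% (13.9 to 15.9) against 12.8%. Within non-dividing cells the share was thus above the product in each of these libraries, and beyond counting error only under the Mll3/4 label. That label had 5324 such cells, against 289 in control and 202 under the Mll3 label. Its interval is narrower for that reason, so no difference between the libraries is read from this. A Rag1 UMI was found in 59.6% of Mll3/4-labelled cells with a Rag2 UMI and 48.4% of cells without. Of Mll3/4-labelled cells with a Dntt UMI 55.6% had a Rag1 UMI, against 42.7% of those without.

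The clusters of B-lineage cells repeated the split by the combined cycle lists within control but not fully under the Mll3/4 label. In control, cluster 0 (316 cells) held Rag1 at 645 CPM, Rag2 at 229 CPM and Dntt at 1511 CPM, and cluster 16 (154 cells), which is mostly dividing, held them at 116, 102 and 1059 CPM. Under the Mll3/4 label, cluster 22 (3759 cells, 0.266% dividing) held Rag1 at 598 CPM, Rag2 at 163 CPM and Dntt at 855 CPM. Cluster 25 (1308 cells, 93.3% dividing) held them at 189, 111 and 526 CPM. Cluster 24 (1543 cells) was also low, at 208, 86.0 and 399 CPM, and 1.94% of its cells were called dividing by the combined lists. That call depends on the list: its median S-list share was 0.198% of UMIs, above the S-list threshold of 0.119% and near the 0.234% of cluster 25, while its median G2/M-list share was 0.0249% against 1.02%. Cluster 22 had a median S-list share of 0.0771%. Cluster 23 (214 cells, 81.8% dividing) was nearer to cluster 22, at 492, 207 and 999 CPM. Its median S-list share was 0.0580%, and its median G2/M-list share 1.22%. Low Rag1 in this library was thus found in both clusters with a high S-list share, and higher Rag1 in both with a low one. Mki67, a gene of the G2/M list, was at 1986 CPM in cluster 23 and 141 CPM in cluster 24, and Pcna, a gene of the S list, at 51.7 and 442 CPM. Both are part of the list shares above and add no separate evidence.

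**Figure D4:**
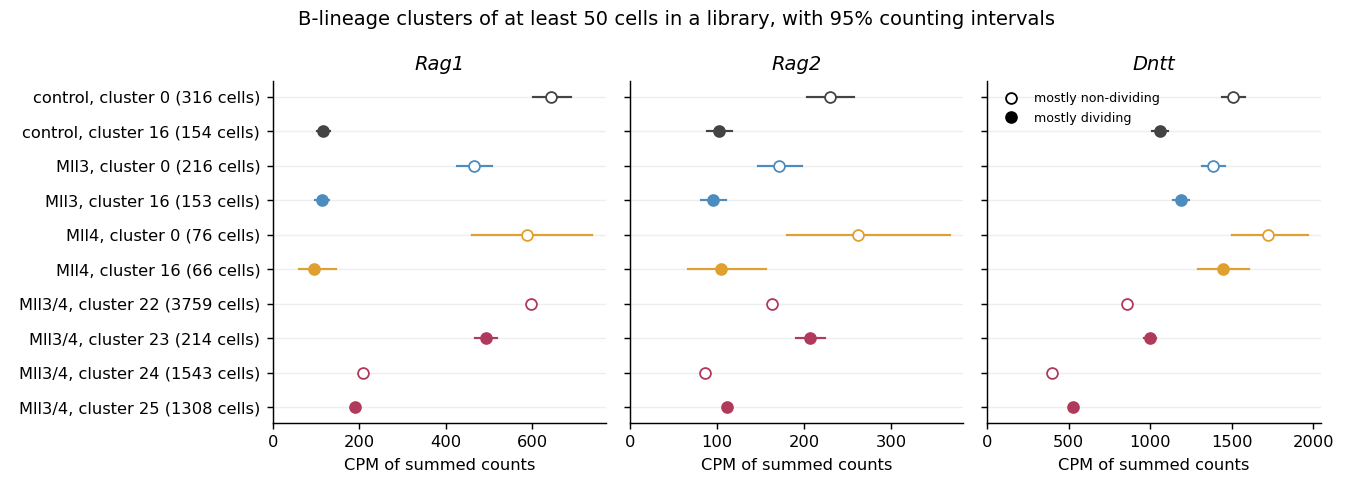
Level of Rag1, Rag2 and Dntt (CPM) in each B-lineage cluster and library, with 95% counting intervals; open points are clusters whose cells are mostly non-dividing by the combined S and G2/M lists. Under the Mll3/4 label cluster 24, open but with a median S-list share above the S-list threshold, has Rag1 at 208 CPM, and cluster 23, filled, has Rag1 at 492 CPM.

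Markers of B-cell stages differed between the libraries beside these levels. In B-lineage cells of the Mll3/4 label against control, Enpep, an aminopeptidase on the surface of early B cells, was at 340 CPM against 31.4 CPM, the interleukin 7 receptor gene Il7r at 703 against 265, the stem cell factor receptor gene Kit at 192 against 84.9 and Flt3 at 29.8 against 5.66. Bst1, a surface enzyme of B-cell precursors, was at 3.53 against 93.0 CPM and the kappa light chain gene Igkc at 12.7 against 59.4. Of 14 stage markers measured, these 4 were at least 2-fold higher and these 2 at least 2-fold lower, where 9.45% and 7.39% of all genes were, with a median log2 ratio of 0.04 beside 0.02 over all genes. The heavy chain gene Ighm was at 888 against 971 CPM. The part of stage in the differences of Rag1, Rag2 and Dntt was not tested. Among non-dividing Mll3/4-labelled cells thinned to 2000 UMIs, a Dntt UMI was found in 69.7% of cells with an Il7r UMI and 55.8% of those without, and a Rag1 UMI in 59.97% and 45.04%. In control the Dntt shares were 94.5% and 86.0%, and the Rag1 shares 64.5% and 64.8%. Under the Mll3 label they were 94.1% and 89.6% for Dntt, and 63.2% and 55.2% for Rag1, with overlapping intervals. A lower Rag1 share without Il7r was thus not seen in control.

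The surface antibody for B220, an isoform of CD45 on B-lineage cells, was set beside Rag1. Over 3 equal groups of non-dividing cells from low to high B220, Rag1 was at 451, 666 and 790.1 CPM in control, 264, 464 and 577 CPM under the Mll3 label, 749, 1164 and 270 CPM under the Mll4 label (21 cells each), and 453, 455 and 453 CPM under the Mll3/4 label. Rag1 CPM was thus higher with B220 in non-dividing cells of control (237, 293 and 293 counts) and the Mll3 label (129, 170 and 196 counts). Median depth from low to high B220 was 3473.5, 3468.5 and 3389 UMIs in control and 4540, 3732 and 3499 UMIs under the Mll3 label. The part of depth or cycle phase in this order was not tested. Median B220 counts in these groups were 124, 204 and 292 in control but 6, 13 and 32 under the Mll3/4 label, where median depth also differed, at 7965.5, 8984.5 and 10151 UMIs, so the groups of these 2 libraries are not matched. In dividing control cells Rag1 was at 123, 131 and 99.6 CPM, with no such order. For CD117, the Kit protein, Dntt in non-dividing cells was at 575, 682 and 776 CPM from low to high under the Mll3/4 label and at 1544, 1432 and 1279 CPM in control. It was at 1266, 1266 and 1431 CPM under the Mll3 label and 1138, 1728 and 1698 CPM under the Mll4 label, so that control alone was lower at each step. Median CD117 counts in these groups were 107, 233 and 472 under the Mll3/4 label and 37, 55 and 97 in control. Median depth was 8256, 8842 and 10111 UMIs from low to high CD117 under the Mll3/4 label, so these groups are not matched either. Cells were sorted for Kit, so low CD117 is low only among sorted cells.

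The hashtags split the Mll3/4-labelled B-lineage cells into 3672 of the first and 2980 of the second. Rag1 in dividing cells was at 280.2 CPM in the first and 181 CPM in the second, and in non-dividing cells at 444 and 461 CPM. The log2 ratio of dividing to non-dividing cells was -0.66 and -1.35 under the Mll3/4 label, and -2.57 and -2.25 in control. Dividing cells were thus lower in both hashtags of both libraries, and the ratio in each hashtag of the Mll3/4 label was smaller than in either of control. In cluster 22 Rag1 was at 566 and 641 CPM and Dntt at 712 and 1061 CPM for the first and second hashtag. In cluster 24 Dntt was at 303 and 490.04 CPM.

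The gene B230118H07Rik overlaps both Rag1 and Rag2, at chr2:101560781-101649532 on the minus strand: it has the strand of Rag1 and runs against Rag2. Reads that fall in shared sequence cannot be assigned to one of them by a count. It was at 36.2, 37.4, 18.1 and 44.4 CPM over all kept cells, in the order control, Mll3, Mll4 and Mll3/4, and at 27.7, 20.1, 2.81 (1 count) and 44.4 CPM in B-lineage cells. Over all cells it was thus 1.23-fold higher under the Mll3/4 label than in control, beside 53.4-fold for Rag1. The next gene on the Rag1 side, Traf6, at chr2:101678429-101701669, was at 11.5, 11.1, 10.6 and 15.7 CPM over all cells. Blnk at chr19:40928927-40994535 lies before Dntt and Opalin at chr19:41061710-41077113 after it. Blnk, an adaptor of pre-B cell receptor signalling, had 429 CPM in B-lineage cells of control and 456 CPM in those of the Mll3/4 label.

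Genes of end joining, which repair the breaks made by Rag1 and Rag2, were taken from a list of 18. Between dividing and non-dividing cells of the Mll3/4 label, 4 of 18 measured genes were at least 2-fold higher and 0 at least 2-fold lower, where 5.16% and 2.24% of all genes were. The 4 were the histone gene H2afx (1061 against 52.3 CPM), Hmgb2 (5222 against 923) and Hmgb1 (5782 against 2364), whose DNA-bending proteins assist the recombinase, and Nbn (27.9 against 13.1), of the complex that senses breaks. With dividing cells called by the S list alone, 1 gene of the list was at least 2-fold higher. In control 4 of 15 were higher (H2afx, Hmgb2, Hmgb1 and Mre11a) and 3 lower, where 7.77% and 12.1% of genes were. The 3 lower ones were Xrcc6, which encodes Ku70, at 115 against 476 CPM, Lig4, the ligase of this pathway, at 16.8 against 57.6 CPM, and Dclre1c, which encodes the Artemis nuclease, at 9.21 against 19.5 CPM. The same 3 genes had, under the Mll3/4 label, levels of 62.8 and 82.6, 14.4 and 16.4, and 7.90 and 6.29 CPM in dividing and non-dividing cells. The median log2 ratio of the list was 0.56 in control and 0.04 under the Mll3/4 label, beside -0.12 and -0.08 over all genes. Under the Mll3/4 label 10 of the 18 genes had a ratio above 0 and 8 below 0. No rise of the list as a set is therefore read from the 4 genes past 2-fold.

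Against control B-lineage cells, those of the Mll3/4 label had 1 of 18 end-joining genes at least 2-fold higher and 2 lower, counts near the 9.45% and 7.39% of all genes. Xrcc5, which encodes Ku80, was at 37.3 against 17.0 CPM. Xrcc6 was at 76.8 against 266 CPM and Lig4 at 15.8 against 33.9 CPM. The median of the list was -0.10 beside 0.02 over all genes.

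Of 24 transcription factor genes listed as regulators of the Rag locus or of early B cells, 22 were measured in that comparison, and 3 were at least 2-fold higher and 5 lower, where 9.45% and 7.39% of all genes were. Foxo1, a known activator of Rag transcription, was at 476 against 119.7 CPM, Id3, an inhibitor of E proteins, at 581 against 199 CPM and the E protein gene Tcf4 at 823 against 305 CPM. Lower were Spi1, which encodes PU.1, at 3.90 against 49.7 CPM, Irf8 at 8.55 against 81.1 CPM, Spib at 3.14 against 27.7 CPM, Irf4 at 11.8 against 39.0 CPM and the E protein gene Tcf3 at 102 against 228 CPM. Ebf1 and Pax5, which specify the B lineage, were not past 2-fold, at 1853 against 2592 and 368 against 246 CPM. Between dividing and non-dividing cells of the Mll3/4 label 0 of 22 regulators passed 2-fold in either direction, where 5.16% of all genes were higher and 2.24% lower. In control 0 of 21 were higher and 3 lower, beside 7.77% and 12.1% of all genes, so the lower count is near the background. The 3 were Foxo1 at 82.4 against 171 CPM, Sox4 at 215 against 568 CPM and Spib at 15.2 against 44.9 CPM. The medians were -0.04 and -0.63 beside -0.08 and -0.12 over all genes.

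The genes whose levels were most like each member were named by the Pearson correlation of log2(CPM + 1) over 27 sums of a class in a library, among 13796 genes. These sums share libraries and depth, and the values are a description. For Rag1 they were Cd79a (0.99) and Ebf1 (0.99), then Pou2af1, Gfra1 and Blnk (0.98 each). For Rag2 they were Gfra1 (0.98), then 1700027J07Rik, Ebf1, Rag1 and Blnk (0.97 each). For Dntt they were Acvr2a (0.92), then Plcl1, Arpp21, Tmem121 and Fgf13 (0.90 each). Rag2 was at rank 11 for Rag1 and Dntt at rank 296, with a correlation of 0.73. The Dntt-like genes Acvr2a and Tmem121 were, like Dntt, also present in HSC/MPP-like cells of control, at 5.92 and 13.6 CPM.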

How the data were processed

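Sorted Kit+ cells of mouse bone marrow went through 10x Genomics 3′ version 3.1 libraries with barcoded antibodies, per the labels. The authors deposited UMI counts per gene and barcode, made with Cell Ranger 6.1.2 on mm10 per the submitters' processing notes and the file headers. The annotation release and the cell calling settings are not given in the sources used here. Barcodes with at least 500 genes, at least 1000 UMIs and at most 10% mitochondrial UMIs were kept, and the highest Scrublet scores (expected rate 0.06) were removed at 0.8% per 1000 barcodes. The deposited matrices held 6622 to 10001 barcodes and 36413830 to 174795636 gene UMIs per library. Counts were not corrected for free RNA.

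Cells of the 4 libraries were clustered together in scanpy 1.11.5 (2000 variable genes without the 3 members, Xist, Y-linked and mitochondrial genes, 30 components, 15 neighbours, Leiden resolution 1, seed 0) and named from marker lists of 13 classes by a rule taken from earlier processing of these data. The members and lists were chosen with earlier results of these data known. Counts were summed per library, class and state and given as CPM (counts scaled to a common total) with exact Poisson intervals, ratios with exact binomial intervals, and shares with exact binomial intervals, in scipy 1.17.1. No p-value was computed, since cells are not replicates. A gene was measured in a comparison with at least 20 counts in either sum, and calls over all genes needed 2-fold with a pseudocount of 1 CPM. Ratios of the members have no pseudocount.

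Dividing cells lay above the crossing of a Gaussian mixture of 2 components, taken between their means, in scikit-learn 1.9.0. Named genes were the 3 members, list genes past 2-fold (at most 6 in each direction), all measured stage markers as background, the 5 genes most like each member, the neighbouring genes, and Kmt2c and Kmt2d. Ebf1, Pax5, Ighm, and the values of Xrcc6, Lig4 and Dclre1c in the Mll3/4-labelled library, were added after their values were seen, as were the comparisons by S and G2/M list, by cluster and hashtag, and among cells of 5000 to 20000 UMIs. Trimmed mean of M values scaling came from edgeR 4.0.16. Scripts were tested on simulated data. Gene positions are from GENCODE M21 and promoters from RefSeq on GRCm38.p6.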

Additional observations from a re-analysis of the deposited data

How the results depend on the processing

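The log2 ratios of the 3 genes and the counts of the 2 lists were recomputed under 18 alternatives, one at a time, giving 208 values. Of these, 142 moved by less than the counting interval or stayed within 1.5 times the count, 59 moved further and 7 changed sign. Of 174 ratios, 167 kept their direction. The cause of each change was not tested. Stricter cell filters and thinning kept the cluster names and dividing states. The window of 5000 to 20000 UMIs was chosen after seeing the data. No paired analysis was possible because each group has 1 library.

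For the Mll3/4 label over control in all kept cells, Rag1 was at 5.55 with a pseudocount, 3.79 thinned, 3.68 as a mean over cells, 6.07 and 5.41 in the first and second hashtag and 6.12 in the depth window. Rag2 was at 4.84, 3.16 and 3.33 with the first 3 of these settings and 5.004 in the depth window. Dntt was at 4.12 with trimmed mean scaling, 2.88 thinned, 2.84 as a mean over cells, 4.07 in the first hashtag and 3.52 in the depth window. In B-lineage cells, Rag1 was at 0.37 with trimmed mean scaling, -0.15 thinned and -0.18 as a mean over cells, both of them reversed, 0.45 and 0.081 by hashtag, 0.46 with cells chosen by 3 of 8 markers and 1.27 in the depth window. Rag2 was at -0.74 thinned and -0.51 as a mean over cells, and it reversed to 0.011 by 3 of 8 markers and 0.23 in the depth window. Dntt was at -0.79 with trimmed mean scaling, -0.84 as a mean over cells, -1.08 and -0.75 by hashtag, -0.69 by 3 of 8 markers and -0.83 in the depth window.

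For dividing over non-dividing cells of the Mll3/4 label, Rag1 was at -0.93 without doublet removal, -0.66 and -1.35 by hashtag, -0.83 with the S list alone, -1.32 for the top against the bottom of 5 groups and -0.77 in the depth window. Rag2 was at -0.23 as a mean over cells, 0.011 (reversed) and -0.30 by hashtag, -0.42 with the S list and -0.28 for top against bottom. Dntt was at -0.16 with trimmed mean scaling, -0.26 thinned, -0.29 as a mean over cells, 0.077 (reversed) and -0.49 by hashtag, -0.49 with the S list, -0.42 for top against bottom and -0.0050 in the depth window. In control, Rag1 was at -2.17 with trimmed mean scaling, -2.65 thinned, -1.91 by 3 of 8 markers, -2.00 with the S list and -1.36 in the depth window. Rag2 was at -0.56 by 3 of 8 markers and -0.31 in the depth window. Dntt was at -0.13 with trimmed mean scaling, -0.70 and -0.10 by hashtag, 0.11 (reversed) by 3 of 8 markers, -0.46 with the S list, -0.47 for top against bottom and -0.094 in the depth window. With the S list alone, 1 end-joining gene was at least 2-fold higher in dividing cells of the Mll3/4 label.

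Depth limits precision in the shallow Mll4-labelled library, with 97 Rag1 and 57 Rag2 counts in its 143 B-lineage cells.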
